A study of Mus musculus with 10 samples.

Results

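Stimulated naive CD4 T cells that received Compound 10 were compared with stimulated cells that received its solvent. The series' design text names an NFAT:AP-1 inhibitor as the chemical under test. The members are the 5 libraries, of 10 in the series, labelled as stimulated, 3 with Compound 10 and 2 with vehicle. All cells were CD4+CD62L+CD69- T cells, labelled naive (helper T cells that have not met antigen), sorted from the spleens of C57BL/6 mice. Cells were pre-treated for 1 h with 12.5 µM Compound 10 or with DMSO (vehicle), and PMA (10 nM) and ionomycin (1 µM) were then added for 2 h. PMA activates protein kinase C and ionomycin lets calcium into the cell, so that neither acts through the T cell receptor. The other 5 libraries, 3 with vehicle and 2 with Compound 10, came from cells left without stimulus, called resting cells here. They had the same 1 h pre-treatment with DMSO or 12.5 µM Compound 10. Whether they were kept for the further 2 h is not recorded in the sample details used here. Nothing in the labels ties replicates to different mice or dishes. All p-values therefore measure the spread between these samples only, and that spread may be technical.

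NFAT proteins are transcription factors that the phosphatase calcineurin releases into the nucleus when calcium rises. On many cytokine and receptor genes they bind DNA next to AP-1, a pair of Fos and Jun family proteins that appears when the Ras and protein kinase C pathways are active. NFAT that acts without AP-1 is known to drive another gene programme, linked to T cell anergy and exhaustion, which includes inhibitory receptors and negative regulators of T cell receptor signalling.

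The promoters of Il2, Tnfsf14 and Tnf are shown because the first encodes the textbook NFAT:AP-1 target cytokine, and the others are TNF family ligands that moved in opposite directions in these data. Each sequence holds the 250 bases before the start of the gene in RefSeq (GRCm38.p6), 5′ to 3′ on the strand of the gene, which is the minus strand for all 3. Capitals mark the core NFAT letters GGAAA, read on either strand, and the AP-1 letters TGANTCA. The Il2 window was chr3:37125955-37126204, that of Tnfsf14 chr17:57194182-57194431 and that of Tnf chr17:35202008-35202257.
Il2: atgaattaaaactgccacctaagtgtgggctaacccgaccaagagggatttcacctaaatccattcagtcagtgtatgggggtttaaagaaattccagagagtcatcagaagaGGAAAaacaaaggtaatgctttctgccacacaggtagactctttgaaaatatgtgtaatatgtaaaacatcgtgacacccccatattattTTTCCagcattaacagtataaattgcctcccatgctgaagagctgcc
Tnfsf14: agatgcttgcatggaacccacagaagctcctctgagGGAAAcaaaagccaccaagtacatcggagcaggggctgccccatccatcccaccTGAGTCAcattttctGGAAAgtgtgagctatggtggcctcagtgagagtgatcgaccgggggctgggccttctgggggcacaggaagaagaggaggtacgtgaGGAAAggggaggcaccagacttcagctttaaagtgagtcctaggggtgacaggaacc
Tnf: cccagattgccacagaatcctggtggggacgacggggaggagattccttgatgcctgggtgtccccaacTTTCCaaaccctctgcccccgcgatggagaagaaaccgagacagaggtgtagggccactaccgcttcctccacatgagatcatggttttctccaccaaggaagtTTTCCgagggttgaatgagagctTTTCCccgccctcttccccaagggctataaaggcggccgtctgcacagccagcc
Counted back from the start, the NFAT letters lay at -137 to -133 and -47 to -43 in the Il2 window. In the Tnfsf14 window they lay at -214 to -210, -145 to -141 and -57 to -53, and the AP-1 letters at -160 to -154. The Tnf window held the NFAT letters at -181 to -177, -77 to -73 and -54 to -50. For shares over many genes, each gene name was counted as having a match if any of its RefSeq windows of this length held it. GGAAA was present for 58.8% of 27025 names and for 58.5% of those tested. Among genes that fell with Compound 10 in stimulated cells the share was 60.4%, and among those that rose 58.7%. The AP-1 letters TGANTCA were present for 7.82% of all names, 5.22% of those tested, 5.81% of those that fell and 5.13% of those that rose. The composite of GGAAA with TGNNTCA 3 bases on, searched on both strands as were the others, was present for 18 names in all. These included 5 of 9804 tested, 0 of 1479 that fell and 2 of 1169 that rose. By symbol 9804 of 14405 tested names had a promoter in the table. A match is a description of letters and not of binding. Sites more than 250 bases before the start, and sites with other letters, were not searched. A window without a match, such as that of Il2 for AP-1, therefore does not mean that the gene lacks such a site.

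Of 14417 genes tested, 3375 (23.4%) differed between the 2 stimulated groups at an adjusted p under 0.05. Of these 1513 were higher and 1862 lower with Compound 10. Here and below the test is edgeR's quasi-likelihood F test, with p-values adjusted by the Benjamini-Hochberg method. These are 10.5% and 12.9% of the genes tested, and the list counts below are read against those shares. After each list's counts, those with 1 library left out are given in brackets in the same order, for each vehicle library and for any other library that moved the list's total by over 1.5 times. By at least 2-fold, 934 genes rose and 1037 fell. The stimulated groups did not overlap in 54.6% of all genes tested, and a lack of overlap below is read against that share. The higher genes made up 44.8% of the calls with the TMM scaling used here and 57.8% with upper-quartile scaling, which moved the median log2 fold change over all genes from 0.04 to 0.18. Without vehicle replicate 1 the calls fell to 1644, and without vehicle replicate 2 to 1797. The stimulated libraries held 10694591 to 14913786 counts. Ribosomal RNA gene models took 5.99% to 10.6% of counts under vehicle and 5.49% to 11.6% with Compound 10, and mitochondrial coding genes took 1.80% to 1.88% and 1.47% to 1.56%. Every T cell identity marker was detected, with a summed level of 2817 to 3143 CPM (counts scaled to library size) under vehicle and 2581 to 2992 CPM with Compound 10. Memory or effector T cell markers summed to 246.5 to 283.1 CPM under vehicle and 199 to 242.3 CPM with Compound 10. Those of regulatory T cells, Il2ra among them, summed to 172.1 to 217.9 and 108.8 to 129.4 CPM, and those of B cells to 36 to 53.1 and 44.5 to 68 CPM. The part of such cells in the results was not tested. In RNA from many cells, fewer cells of a type and less RNA per cell cannot be told apart.

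**Figure D1:**
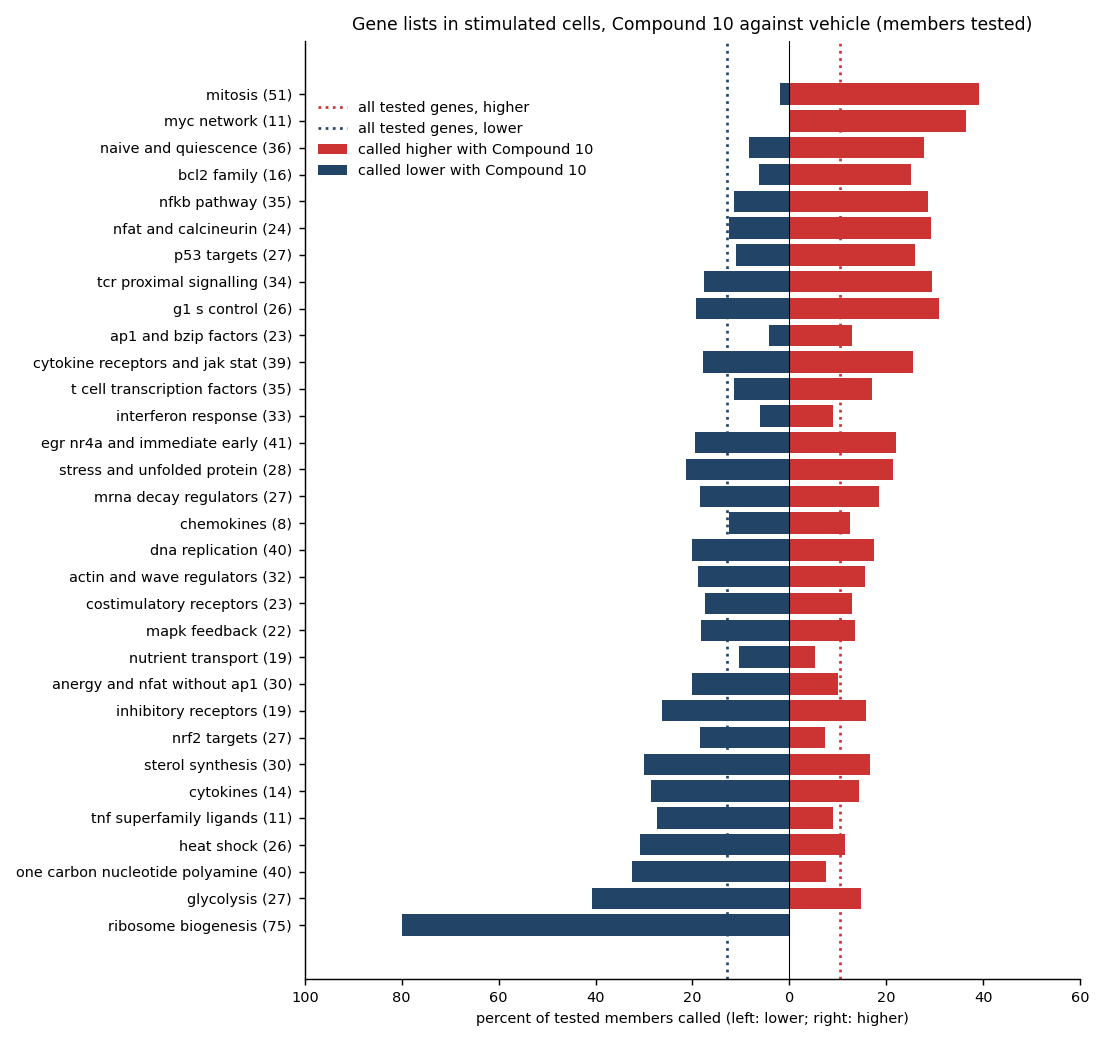
Percent of the tested members of each of 32 gene lists that were called lower (blue, left) or higher (red, right) with Compound 10 in stimulated cells, with the number of tested members after each name. Dotted lines mark the shares over all tested genes, 12.9% lower and 10.5% higher. Ribosome biogenesis reaches farthest to the left with 60 of 75 members, and mitosis farthest to the right with 20 of 51.

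Among the secreted products, Il2 and Il3 fell and Ifng rose, so the cytokine genes did not move together. Of 14 cytokine genes tested, 4 fell and 2 rose (1 and 0 without vehicle replicate 1, 1 and 1 without vehicle replicate 2), with a median log2 fold change of -0.69. Il2, the T cell growth factor, stood at 345 and 381 CPM under vehicle and 29.3, 50.5 and 46.9 CPM with Compound 10. The highest Compound 10 library was far below the lower vehicle library, and the change was -3.103 ± 0.22 on the log2 scale (SE; edgeR, adjusted p = 2.90e-05). In resting cells Il2 was near 0 in every library, at a mean of 0.0616 ± 0.0425 CPM (SD, n = 3) under vehicle, so that the Compound 10 level in stimulated cells remained well above rest. Il3, a growth factor for blood progenitors, stood at 6.31 and 5.19 CPM under vehicle and 1.11, 1.37 and 1.42 CPM with Compound 10, a change of -2.14 ± 0.46 (edgeR, adjusted p = 0.00921). It was at 0 in all resting libraries. Its call was lost without either vehicle library, with an adjusted p of up to 0.0913 in edgeR.

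Ifng, the macrophage-activating cytokine of type 1 helper cells, stood at 3.61 and 4.85 CPM under vehicle and 9.84, 11.99 and 11.4 CPM with Compound 10. All 3 Compound 10 libraries were above both vehicle libraries, with a change of 1.38 ± 0.41 (edgeR, adjusted p = 0.0289). That call was lost when any 1 of the 5 stimulated libraries was left out. Csf2, another cytokine with known NFAT:AP-1 sites, stood at 2.704 and 4.85 CPM under vehicle and 4.97, 6.17 and 8.84 CPM with Compound 10. The Csf2 groups did not overlap, as was so for 54.6% of all genes tested, but the gene was not called, and its 95% interval ran from -0.204 to 1.82 on the log2 scale. Lif, a cytokine of the interleukin 6 family, fell by 1.04 ± 0.26 on the log2 scale and Mif, an inhibitor of macrophage migration, by 0.82 ± 0.25. Il16, a ligand of CD4, rose by 0.99 ± 0.21. The Lif and Mif calls were lost without either vehicle library and that of Il16 without vehicle replicate 1. The Mif call was also lost with upper-quartile scaling, with no scaling, and without Compound 10 replicate 1 or 2.

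The TNF family ligands divided in the same way. Of 11 tested, 3 fell and 1 rose (3 and 0 without vehicle replicate 1, 3 and 0 without vehicle replicate 2). Tnfsf14, the costimulatory ligand LIGHT, whose promoter is shown above, stood at 16.9 and 19.3 CPM under vehicle and 1.33, 2.14 and 2.92 CPM with Compound 10, a change of -3.07 ± 0.43 on the log2 scale (SE; edgeR, adjusted p = 0.000359). Ltb, a lymphotoxin subunit needed to shape lymphoid tissue, stood at 588 and 639.5 CPM under vehicle and 183, 185 and 274 CPM with Compound 10, a change of -1.52 ± 0.27. Fasl, the ligand that triggers death through Fas, fell by 1.24 ± 0.18. The groups did not overlap in any of these 3 genes.

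Tnf, the third promoter shown, stood at 4237 and 3511 CPM under vehicle and 8424, 6381 and 7530.0 CPM with Compound 10 and rose by 0.94 ± 0.26 (edgeR, adjusted p = 0.0191). Its call was lost without vehicle replicate 1, without vehicle replicate 2 and without Compound 10 replicate 1. Cd40lg, the ligand through which helper T cells activate B cells, stood at 5799 and 4796 CPM under vehicle and 3164, 3034 and 3155 CPM with Compound 10. The groups did not overlap, but Cd40lg was not called (edgeR, adjusted p = 0.0949, 95% interval -1.44 to -0.09). Among 8 chemokine genes tested, 1 fell and 1 rose (1 and 0 without vehicle replicate 1, 1 and 0 without vehicle replicate 2, 1 and 0 without Compound 10 replicate 1, 1 and 0 without Compound 10 replicate 2). Xcl1, which attracts cross-presenting dendritic cells, fell from 4.64 and 5.02 CPM under vehicle and 0.332, 0.428 and 0.708 CPM with Compound 10, and Cxcl2, a neutrophil attractant, rose from 2.06 and 1.47 CPM under vehicle and 8.402, 6.598 and 6.01 CPM with Compound 10. The changes were -3.27 ± 0.55 and 1.995 ± 0.56. The Cxcl2 call was lost without either vehicle library and without Compound 10 replicate 1 or 2.

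Several surface receptors that stimulation induces were much lower with Compound 10, and these included inhibitory as well as costimulatory ones. Of 19 inhibitory receptors and ligands tested, 5 fell and 3 rose (4 and 2 without vehicle replicate 1, 4 and 2 without vehicle replicate 2). Of 23 costimulatory receptors, 4 fell and 3 rose (3 and 1 without vehicle replicate 1, 2 and 1 without vehicle replicate 2). Cd160, a receptor for the ligand HVEM, stood at 16.4 and 17.4 CPM under vehicle and 0.884, 1.11 and 0.884 CPM with Compound 10. The Compound 10 libraries were close to the resting vehicle mean of 0.833 ± 0.173 CPM (SD, n = 3), and the change was -4.12 ± 0.35 on the log2 scale (SE; edgeR, adjusted p = 2.95e-05). Vsir, which encodes the checkpoint protein VISTA, stood at 1542 and 1418 CPM under vehicle and 256, 385 and 397 CPM with Compound 10, a change of -2.097 ± 0.24. Btla, another HVEM receptor, stood at 141 and 142 CPM under vehicle and 32.7, 56.3 and 38.03 CPM with Compound 10, a change of -1.74 ± 0.28. In resting cells Btla rose with Compound 10 instead, from a mean of 6.98 ± 1.898 CPM (SD, n = 3) to 21.9 ± 7.53 CPM (SD, n = 2).

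Among costimulatory receptors, Tnfrsf9 (4-1BB) stood at 79.8 and 82.9 CPM under vehicle and 23.99, 26.05 and 21.7 CPM with Compound 10 and fell by 1.77 ± 0.199. Crtam, an adhesion receptor of activated T cells, fell by 2.26 ± 0.42, and Icos, the helper receptor for ICOS ligand, by 0.82 ± 0.17, the last a call lost without vehicle replicate 2 (edgeR, adjusted p = 0.0537). Cd2, an adhesion receptor at the T cell surface, fell by 0.84 ± 0.25, a call lost under 7 of the 19 alternative settings. Cd6, another such adhesion receptor, was counted in the inhibitory list and fell by 0.72 ± 0.14. Markers of CD8 T cells, which also use Cd160, Crtam and Xcl1, summed to 10.6 to 14.97 CPM under vehicle and 3.89 to 7.06 CPM with Compound 10, with Gzmk at 0 in all stimulated libraries and 0 of 3 tested markers called. Their part in these receptor results was not tested.

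The receptors that rose were of another set. Cd274, which encodes the inhibitory ligand PD-L1, stood at 76.5 and 88.5 CPM under vehicle and 263, 268 and 232 CPM with Compound 10, a change of 1.62 ± 0.196, and Pdcd1lg2, which encodes PD-L2, at 4.51 and 9.26 CPM under vehicle and 28.96, 34.1 and 36.8 CPM with Compound 10, a change of 2.25 ± 0.39. In both genes every Compound 10 library was above both vehicle libraries. Slamf6, a receptor of the SLAM family, rose by 1.29 ± 0.21 and Nt5e, the ecto-enzyme CD73, by 1.01 ± 0.295. The Nt5e call was lost without either vehicle library and without Compound 10 replicate 1 or 2. Cd69, the early activation marker that retains lymphocytes in tissue, stood at 4077 and 4354 CPM under vehicle and 6172, 6182 and 6671 CPM with Compound 10 and rose by 0.59 ± 0.14 (edgeR, adjusted p = 0.0105), a call lost without either vehicle library. The cells were sorted as CD69 negative before culture, so the level here is the one reached in culture.

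**Figure D2:**
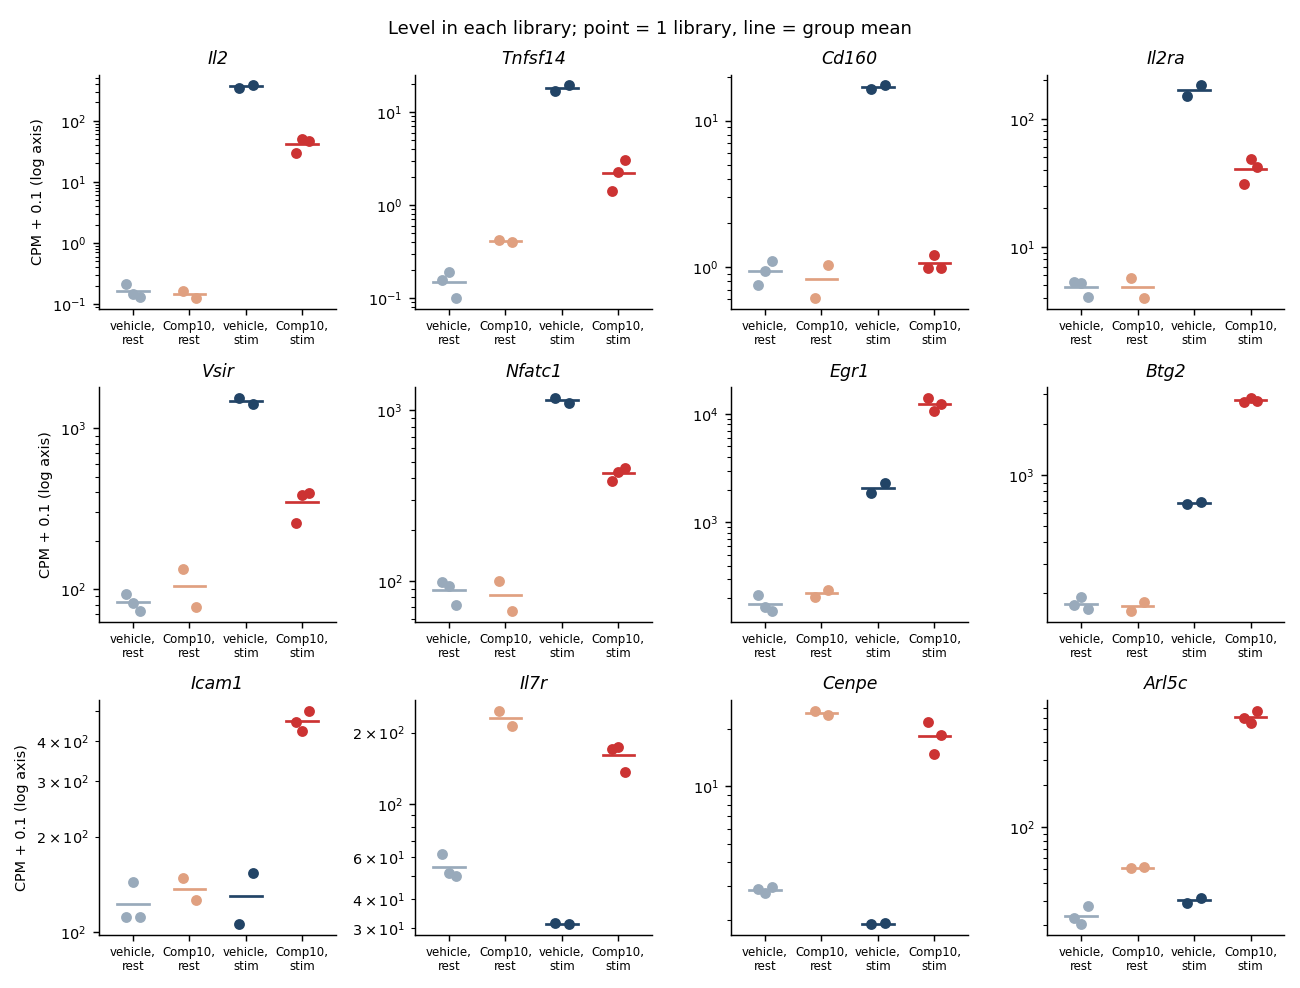
Level of 12 genes in each of the 10 libraries, as CPM plus 0.1 on a log axis, with points for libraries and lines for group means. For Il2, Tnfsf14, Cd160, Il2ra, Vsir and Nfatc1 the 3 stimulated Compound 10 libraries lie below both stimulated vehicle libraries, and for Egr1, Btg2, Icam1, Il7r, Cenpe and Arl5c they lie above them.

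Cytokine receptors changed in both directions: of 39 receptor and JAK-STAT genes tested, 7 fell and 10 rose (7 and 6 without vehicle replicate 1, 6 and 6 without vehicle replicate 2). Index numbers in the file names were also grouped here as 13 to 16, 19 to 22 and 25 to 29. The labels name no such batch. With these file index groups as a block, 9 fell and 18 rose. Il2ra, the high-affinity chain of the interleukin 2 receptor, stood at 152 and 184 CPM under vehicle and 30.6, 48.5 and 41.7 CPM with Compound 10. The groups did not overlap, and the change was -2.06 ± 0.22 on the log2 scale (SE; edgeR, adjusted p = 8.74e-05). The change was smaller in length-scaled TPM sums, at -1.18, and remained called. Il15ra, the matching chain for interleukin 15, fell from 20.2 and 14.97 CPM under vehicle and 2.87, 5.31 and 3.18 CPM with Compound 10, and Jak2, a kinase that carries cytokine signals, from 265 and 256 CPM under vehicle and 75.5, 99.1 and 69.6 CPM with Compound 10. The changes were -2.204 ± 0.32 and -1.68 ± 0.17.

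Il7r, the receptor for the survival cytokine of naive T cells, moved the other way, at 31.4 and 31.2 CPM under vehicle and 171, 174 and 136 CPM with Compound 10. It rose by 2.36 ± 0.18 on the log2 scale (SE; edgeR, adjusted p = 2.90e-05). Under vehicle the stimulated level was below the resting mean of 54.2 ± 6.38 CPM (SD, n = 3), and Compound 10 also raised the gene in resting cells, to a mean of 230.0 ± 23.6 CPM (SD, n = 2). Ifngr1 and Ifngr2, the 2 chains of the interferon gamma receptor, rose by 1.32 ± 0.15 and 1.35 ± 0.16, and Stat2, which carries type I interferon signals, by 1.75 ± 0.22. Each of these also rose in resting cells.

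The NFAT gene with the autoregulated, inducible promoter, Nfatc1, fell with Compound 10. It stood at 1181 and 1105 CPM under vehicle and 384, 434 and 461 CPM with Compound 10, against a resting vehicle mean of 87.9 ± 13.8 CPM (SD, n = 3). The Compound 10 libraries lay between rest and stimulated vehicle without overlap, and the change was -1.42 ± 0.19 on the log2 scale (SE; edgeR, adjusted p = 0.000274). Nfatc2, the NFAT of resting T cells, stood at 5.15 and 7.96 CPM under vehicle and 20.01, 25.6 and 16.8 CPM with Compound 10 and rose by 1.65 ± 0.36, to near its resting vehicle mean of 18. ± 4.32 CPM (SD, n = 3). That call was lost without vehicle replicate 1. Of 24 NFAT and calcineurin genes tested, 3 fell and 7 rose (1 and 3 without vehicle replicate 1, 1 and 4 without vehicle replicate 2, 1 and 5 without Compound 10 replicate 2). Dyrk1a, a kinase that opposes NFAT, and Homer1, a scaffold protein gene, fell by 1.06 ± 0.29 and 0.73 ± 0.24. The calcineurin catalytic subunit genes Ppp3cb and Ppp3cc rose by 1.29 ± 0.26 and 1.88 ± 0.36, and the calcium channel subunit gene Orai2 by 1.26 ± 0.21. The Dyrk1a and Homer1 calls were lost without either vehicle library, and that of Dyrk1a also without Compound 10 replicate 1 or 2. The Homer1 call was lost under 9 of the 19 alternative settings. Upper-quartile scaling, no scaling and length-scaled TPM sums were among them. The Ppp3cb change was 0.49 and not called in length-scaled TPM sums, and its call was also lost without vehicle replicate 2.

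Transcripts of Nfatc1 start at 2 sites 4885 bases apart, and those of both sites were lower with Compound 10. Transcripts of the upstream site summed to 133 and 130.3 TPM (a level per transcript length) in the vehicle libraries and 54.8, 62.1 and 65.6 TPM with Compound 10. Those of the downstream site summed to 123 and 119.6 TPM and 33.2, 46.8 and 38.3 TPM. The resting vehicle means were 13.9 ± 1.27 TPM and 19.9 ± 6.49 TPM. The split of reads between transcripts is an estimate by kallisto and was not tested.

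**Figure D3:**
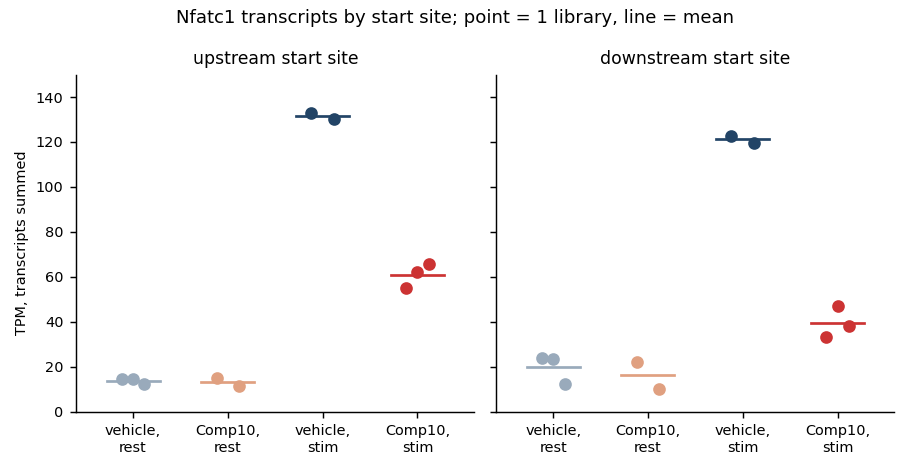
TPM of Nfatc1 transcripts summed by start site, upstream on the left and downstream on the right, with points for libraries and lines for group means. At both sites the 3 stimulated Compound 10 libraries lie below the 2 stimulated vehicle libraries and above the resting ones.

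The AP-1 genes themselves were mostly not called. Of 23 AP-1 and bZIP genes tested, 1 fell and 3 rose (0 and 2 without vehicle replicate 1, 0 and 2 without vehicle replicate 2, 0 and 2 without Compound 10 replicate 3). Fos stood at 1163 and 1439.6 CPM under vehicle and 1761, 1889 and 2035 CPM with Compound 10, and Jun at 325 and 390.4 CPM under vehicle and 428, 473 and 468 CPM with Compound 10. In both genes the Compound 10 libraries were above the vehicle libraries, but neither was called (edgeR, adjusted p = 0.0877 and 0.251), and the 95% intervals on the log2 scale were 0.08 to 1.01 and -0.097 to 0.8. Fosl1 and Batf, 2 other AP-1 partners, overlapped between groups, with intervals of -0.52 to 0.37 and -0.397 to 0.56. These intervals leave room for changes of less than 2-fold in either gene. Junb rose from 1613 and 1893 CPM under vehicle and 3931, 3717 and 4397 CPM with Compound 10, a change of 1.196 ± 0.17 on the log2 scale (SE; edgeR, adjusted p = 0.000496). Creb1, a cyclic AMP responsive factor, rose by 1.097 ± 0.15. The small Maf genes Mafk and Maff changed by -0.59 ± 0.19 and 0.69 ± 0.22, calls that were lost without either vehicle library. The Mafk call was lost under 7 of the 19 alternative settings, upper-quartile scaling and no scaling among them, and that of Maff under 5. The list's counts also depended on the fit. With the stimulated libraries fitted alone, 4 of the 23 genes fell and 7 rose. With the file index groups as a block, 3 fell and 5 rose.

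Immediate-early genes diverged: of 41 tested, 8 fell and 9 rose (5 and 6 without vehicle replicate 1, 4 and 7 without vehicle replicate 2). Egr1, a zinc finger factor induced by the MAP kinase pathway, stood at 1879.7 and 2294 CPM under vehicle and 13968, 10585 and 12298 CPM with Compound 10. The lowest Compound 10 library was well above the highest vehicle library, and the change was 2.56 ± 0.21 on the log2 scale (SE; edgeR, adjusted p = 2.90e-05). Egr2 and Egr3, NFAT-responsive relatives of Egr1, were not called (edgeR, adjusted p = 0.555 and 0.569), with intervals of -0.36 to 0.91 and -0.32 to 0.79. Nab1 and Nab2, the corepressors that bind EGR proteins, fell by 1.07 ± 0.2 and 1.03 ± 0.21, the latter a call lost without vehicle replicate 1 (edgeR, adjusted p = 0.0553). Nr4a3 stood at 5159 and 4072 CPM under vehicle and 2154, 2342 and 2215 CPM with Compound 10 and fell by 1.04 ± 0.197, whereas its relative Nr4a1 stood at 31385 and 28744 CPM under vehicle and 25921, 24357 and 28319 CPM with Compound 10 and was not called (edgeR, adjusted p = 0.566, interval -0.67 to 0.27).

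Btg2, an antiproliferative gene that speeds mRNA deadenylation, stood at 671 and 694 CPM under vehicle and 2705, 2852 and 2756 CPM with Compound 10, with no overlap and a change of 2.02 ± 0.15 on the log2 scale (SE; edgeR, adjusted p = 2.90e-05). Zfp36, which encodes the mRNA decay factor tristetraprolin, rose by 1.45 ± 0.23, while its relative Zfp36l1 stood at 4265 and 4078 CPM under vehicle and 1698, 1622 and 2025 CPM with Compound 10 and fell by 1.23 ± 0.15. Klf6 rose by 1.57 ± 0.15 from a vehicle level that stimulation had lowered, since its resting vehicle mean was 317 ± 25.9 CPM (SD, n = 3) against 81.4 ± 8.82 CPM (SD, n = 2) after stimulation. Gadd45a, a stress-inducible growth arrest gene, rose by 1.601 ± 0.23. Among 22 MAP kinase feedback genes, 4 fell and 3 rose (1 and 2 without vehicle replicate 1, 1 and 2 without vehicle replicate 2). Dusp14, a phosphatase that limits T cell receptor signals, fell from 25.5 and 22.7 CPM under vehicle and 2.76, 2.399 and 4.16 CPM with Compound 10, a change of -2.95 ± 0.45, and Dusp8, a phosphatase of stress kinases, rose by 1.71 ± 0.33.

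Of 35 NF-kB pathway genes tested, 4 fell and 10 rose (2 and 6 without vehicle replicate 1, 4 and 6 without vehicle replicate 2). The falls were the subunit genes Nfkb1, Rela and Rel and the adaptor gene Traf6, while the other two subunit genes were not called. Nfkb1 stood at 1160.3 and 1155 CPM under vehicle and 362, 431 and 456 CPM with Compound 10, a change of -1.48 ± 0.22, and Rela at 1890.0 and 1704 CPM under vehicle and 691, 755 and 846 CPM with Compound 10, a change of -1.23 ± 0.18. Rel, the subunit linked to Il2 transcription, fell by 0.78 ± 0.19 and the adaptor Traf6 by 0.902 ± 0.22. Both calls were lost without vehicle replicate 1, and that of Traf6 also in length-scaled TPM sums. Nfkbia, the inhibitor that NF-kB induces, overlapped between groups, with an interval of -0.31 to 0.42. Icam1, the adhesion ligand, stood at 106 and 153 CPM under vehicle and 460.1, 431 and 499 CPM with Compound 10, with no overlap and a change of 1.84 ± 0.198 on the log2 scale (SE; edgeR, adjusted p = 8.24e-05). Tnip1, a partner of the deubiquitinase A20, rose by 1.596 ± 0.17, Nfkbil1 by 2.01 ± 0.23 and the apoptosis inhibitor Birc3 by 1.15 ± 0.15.

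Among lineage regulators, 4 of 35 T cell transcription factor genes fell and 6 rose (2 and 2 without vehicle replicate 1, 1 and 3 without vehicle replicate 2, 1 and 5 without Compound 10 replicate 3). Gata3, the type 2 helper factor, stood at 116 and 134 CPM under vehicle and 239, 278 and 311 CPM with Compound 10 and rose by 1.14 ± 0.25. Bhlhe40, a repressor of interleukin 10, rose by 1.597 ± 0.37, Id3, an inhibitor of E proteins, by 1.48 ± 0.17, and Ets2 by 1.04 ± 0.14. Hif1a, the hypoxia and glycolysis factor, fell by 0.93 ± 0.15. Zbtb32 held 36 counts over the 2 vehicle libraries and 2 counts over the 3 Compound 10 libraries, too few for a fold change. The Bhlhe40 call was lost without either vehicle library and that of Gata3 without vehicle replicate 1 (edgeR, adjusted p of up to 0.101 and 0.0758). Irf4, which scales with stimulus strength, stood at 907 and 816 CPM under vehicle and 608, 698 and 433 CPM with Compound 10 and was not called (edgeR, adjusted p = 0.211, interval -1.25 to 0.102).

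**Figure D4:**
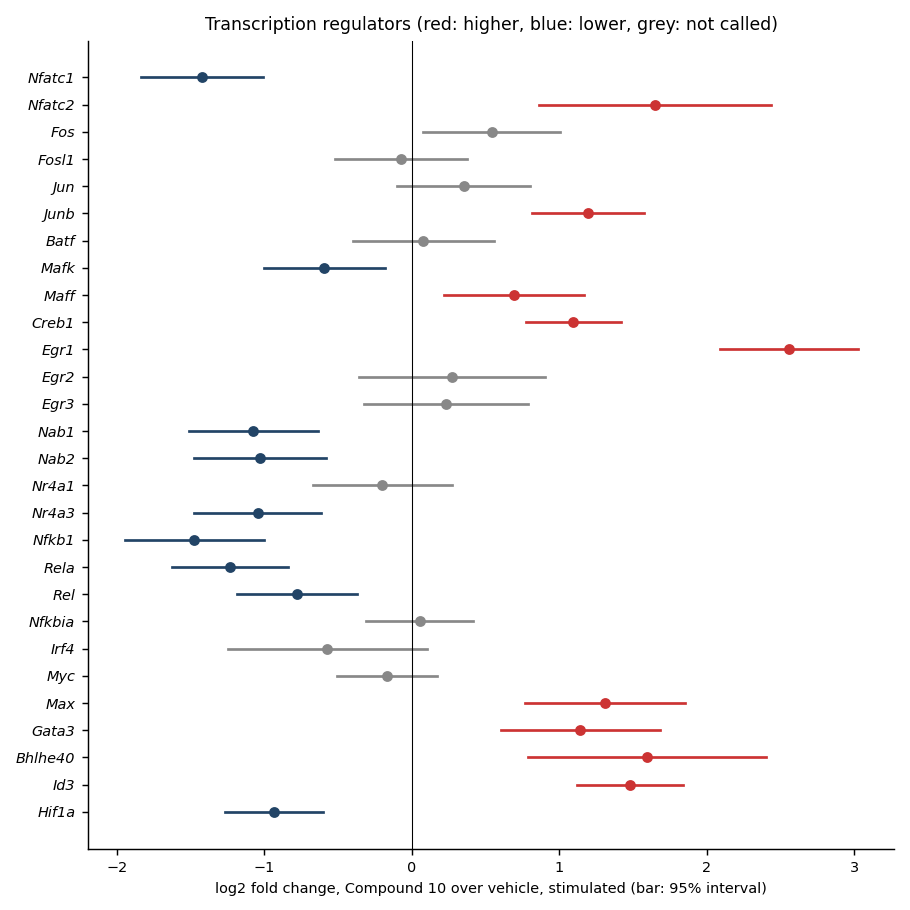
Log2 fold change of Compound 10 over vehicle in stimulated cells for 28 transcription regulators, with bars for the 95% interval; red and blue mark genes called higher and lower and grey those not called. Egr1 lies farthest to the right, Nfkb1 and Nfatc1 farthest to the left, and Fosl1, Batf and Nfkbia lie nearest to 0.

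Of 30 genes linked to anergy and to NFAT acting without AP-1, 6 fell and 3 rose (4 and 1 without vehicle replicate 1, 5 and 1 without vehicle replicate 2), with a median log2 fold change of 0.13 beside 0.04 over all genes. Sla, an adaptor that lowers T cell receptor levels, stood at 515 and 559 CPM under vehicle and 113, 147 and 122 CPM with Compound 10 and fell by 2.08 ± 0.28. Ndfip1, which activates the ubiquitin ligase Itch, fell from 1323 and 1379 CPM under vehicle and 486, 558 and 661 CPM with Compound 10, a change of -1.25 ± 0.21, and Tle4, a corepressor, fell by 0.81 ± 0.15. Dgka, the diacylglycerol kinase of anergic T cells, stood at 286 and 349 CPM under vehicle and 776, 837 and 745 CPM with Compound 10. It rose by 1.31 ± 0.23 (edgeR, adjusted p = 0.00153). Its relative Dgkz rose by 0.96 ± 0.23, a call lost without either vehicle library and in length-scaled TPM sums.

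In the T cell receptor pathway 10 of 34 genes rose and 6 fell (7 and 3 without vehicle replicate 1, 7 and 4 without vehicle replicate 2). Ubash3b, a phosphatase that dampens receptor signals, stood at 118 and 128 CPM under vehicle and 26.4, 27.8 and 19.5 CPM with Compound 10, with no overlap and a change of -2.32 ± 0.19 on the log2 scale (SE; edgeR, adjusted p = 2.90e-05). Ptpn22, another phosphatase, fell by 1.07 ± 0.16, and the kinases Fyn and Zap70 by 0.87 ± 0.16 and 0.695 ± 0.15, the Zap70 call being lost without vehicle replicate 1 (edgeR, adjusted p = 0.0583). Grap2, the adaptor Gads that links LAT to SLP-76, rose from 7.08 and 10.6 CPM under vehicle and 40.8, 55.95 and 63.9 CPM with Compound 10, a change of 2.59 ± 0.27. Prkcq, the protein kinase C of T cells, rose by 1.26 ± 0.21, the adaptor gene Sh2d2a by 1.42 ± 0.17, and Themis, a regulator of thymic selection, by 1.38 ± 0.25. All 4 of the raised genes also rose in resting cells.

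Genes that build ribosomes fell as a group. Of 75 ribosome biogenesis genes tested, 60 fell and 0 rose (47 and 0 without vehicle replicate 1, 47 and 0 without vehicle replicate 2), with a median log2 fold change of -1.11 beside 0.04 over all genes, and 47 to 64 fell in each alternative setting. Polr1b, a subunit of RNA polymerase I, stood at 115 and 108 CPM under vehicle and 13.7, 21.8 and 19.1 CPM with Compound 10. The Compound 10 libraries were below the resting vehicle mean of 24.7 ± 3.18 CPM (SD, n = 3), and the change was -2.61 ± 0.23 on the log2 scale (SE; edgeR, adjusted p = 3.56e-05). Dhx33, a helicase of ribosomal RNA synthesis, fell from 152 and 133 CPM under vehicle and 23.4, 27.6 and 16.5 CPM with Compound 10, a change of -2.66 ± 0.26. The assembly genes Noc4l, Rrs1, Wdr3 and Nifk fell by 1.998 ± 0.16, 1.92 ± 0.16, 1.896 ± 0.16 and 1.87 ± 0.16. At rest 1 of the 75 rose and 3 fell with Compound 10, beside 4.83% and 3.82% of all genes tested. The difference between the 2 compound effects was called toward a lower value in stimulated cells for 38 of the 75, and toward a higher value for 1. Over all genes tested these shares were 4.36% and 2.6%.

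Myc itself, the activator of this programme, stood at 2596 and 2585 CPM under vehicle and 2113, 2268 and 2528 CPM with Compound 10. The groups did not overlap, but Myc was not called (edgeR, adjusted p = 0.486), and its interval of -0.51 to 0.17 leaves room only for changes of less than 2-fold. Of 11 Myc network genes, 4 rose and 0 fell (2 and 0 without vehicle replicate 1, 2 and 0 without vehicle replicate 2). These were Max, the partner of Myc, and Mxd1, Mxd4 and Mxi1, which compete with Myc for Max, and they rose by 1.31 ± 0.25, 1.12 ± 0.16, 0.82 ± 0.21 and 0.65 ± 0.21. The Mxd4 and Mxi1 calls were lost without either vehicle library. The Mxi1 call was lost under 7 of the 19 alternative settings, the replicate number as a block among them.

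Metabolic genes fell more often than they rose. Of 27 glycolysis genes tested, 11 fell and 4 rose (4 and 2 without vehicle replicate 1, 6 and 4 without vehicle replicate 2), with a median of -0.51. Pgam1 stood at 571 and 522 CPM under vehicle and 205, 195 and 211 CPM with Compound 10, a change of -1.42 ± 0.13, and the enzyme genes Ldha and Pkm, which end glycolysis, fell by 0.95 ± 0.15 and 0.82 ± 0.16. Hk2, a hexokinase, and Pfkfb4, a regulator of phosphofructokinase, rose by 1.37 ± 0.31 and 1.82 ± 0.25, the Hk2 call being lost without vehicle replicate 1 (edgeR, adjusted p = 0.102). Of 40 one-carbon, nucleotide and polyamine genes, 13 fell and 3 rose (8 and 2 without vehicle replicate 1, 9 and 1 without vehicle replicate 2). Umps, of pyrimidine synthesis, fell by 1.898 ± 0.22, Adsl, of purine synthesis, by 1.61 ± 0.18. The spermidine synthase gene Srm fell by 1.496 ± 0.18. Adk, the adenosine kinase gene, fell from 175 and 155 CPM under vehicle and 53.5, 51.9 and 60.2 CPM with Compound 10, a change of -1.58 ± 0.15, and fell further in resting cells, from a mean of 199 ± 23.7 CPM (SD, n = 3) to 29.96 ± 2.997 CPM (SD, n = 2). Slc7a1, an arginine transporter, fell by 1.47 ± 0.19.

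Of 51 genes of mitosis tested, 20 rose and 1 fell with Compound 10 in stimulated cells (12 and 1 without vehicle replicate 1, 16 and 1 without vehicle replicate 2), with a median of 0.88. At rest 16 of them rose and 1 fell, beside 4.83% and 3.82% of all genes tested. Cenpe, a centromere motor, stood at 1.803 and 1.82 CPM under vehicle and 21.7, 14.7 and 18.4 CPM with Compound 10, with no overlap and a change of 3.33 ± 0.28 on the log2 scale (SE; edgeR, adjusted p = 2.90e-05). In resting cells it went from a mean of 2.77 ± 0.108 CPM (SD, n = 3) to 24.2 ± 0.7997 CPM (SD, n = 2). Tpx2, a spindle assembly factor, rose from 1.803 and 2.597 CPM under vehicle and 30.5, 22.4 and 27.7 CPM with Compound 10, a change of 3.58 ± 0.44, and Incenp, of the chromosomal passenger complex, from 14.2 and 10.3 CPM under vehicle and 118, 95.96 and 102 CPM with Compound 10, a change of 3.11 ± 0.33. Plk4, the kinase that starts centriole duplication, stood at 11.1 and 12.9 CPM under vehicle and 96.7, 102 and 95.2 CPM with Compound 10 and rose by 3.03 ± 0.23 (edgeR, adjusted p = 2.90e-05). Kif15, a spindle motor, was the member that fell, from 8.24 and 9.61 CPM under vehicle and 0.995, 2.06 and 1.06 CPM with Compound 10, a change of -2.69 ± 0.45.

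Ndc80, a kinetochore gene, was lower after stimulation under vehicle. Its mean at rest was 22.5 ± 3.46 CPM (SD, n = 3) under vehicle and 56.3 ± 5.601 CPM (SD, n = 2) with Compound 10. In stimulated cells it was 3.96 ± 0.586 CPM (SD, n = 2) under vehicle and 23.03 ± 4.303 CPM (SD, n = 3) with Compound 10. It rose with Compound 10 in both states, by 1.32 on the log2 scale at rest (edgeR, adjusted p = 0.00404) and by 2.55 ± 0.26 on the log2 scale (SE; edgeR, adjusted p = 6.15e-05) in stimulated cells. Rbl2, a pocket protein of quiescent cells, had a resting vehicle mean of 81.3 ± 13.4 CPM (SD, n = 3) and stood at 10.2 and 18.1 CPM under vehicle and 64.8, 68.5 and 40.5 CPM with Compound 10, a change of 2.02 ± 0.302.

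Control genes of the G1 phase changed in both directions. Of 26 tested, 8 rose and 5 fell (4 and 3 without vehicle replicate 1, 5 and 2 without vehicle replicate 2, 6 and 2 without Compound 10 replicate 2). Ccnd2, the cyclin D of activated lymphocytes, stood at 3704 and 3788 CPM under vehicle and 1128, 1231 and 1492 CPM with Compound 10, a change of -1.54 ± 0.19 on the log2 scale (SE; edgeR, adjusted p = 0.000151). Cdc25a, a phosphatase that activates cyclin-dependent kinases, fell by 1.32 ± 0.28. Ccnd3 rose by 0.95 ± 0.16, and the cyclin kinase inhibitor gene Cdkn1a stood at 488 and 499 CPM under vehicle and 899, 842 and 1249 CPM with Compound 10 and rose by 1.01 ± 0.22, a call lost without either vehicle library. In DNA replication 8 of 40 genes fell and 7 rose (4 and 5 without vehicle replicate 1, 7 and 4 without vehicle replicate 2). The helicase subunit genes Mcm5 and Mcm3 fell by 1.296 ± 0.18 and 1.07 ± 0.19.

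Naive and quiescence genes rose more often than they fell. Of 36 tested, 10 rose and 3 fell (6 and 0 without vehicle replicate 1, 8 and 0 without vehicle replicate 2), with a median of 0.33. Apart from Il7r and Themis, Nsg2, a gene of naive cells, stood at 23.3 and 25.7 CPM under vehicle and 65.4, 60.4 and 54.7 CPM with Compound 10 and rose by 1.29 ± 0.21. Foxo1, a factor that maintains Il7r and homing receptors, fell by 0.79 ± 0.22. That call was lost without either vehicle library and without Compound 10 replicate 2. The summed level of 8 naive markers was 1139 to 1263 CPM under vehicle and 1697 to 1768 CPM with Compound 10.

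In the BCL2 family 4 of 16 genes rose and 1 fell (1 and 0 without vehicle replicate 1, 2 and 0 without vehicle replicate 2, 3 and 0 without Compound 10 replicate 1, 3 and 0 without Compound 10 replicate 2). The survival genes Bcl2, Mcl1 and Bcl2a1d rose by 0.73 ± 0.16, 0.804 ± 0.25 and 1.24 ± 0.26, Bad, a promoter of cell death, rose by 1.08 ± 0.22, and Bax, another, fell by 0.88 ± 0.26. Each of these 5 calls was lost without at least 1 of the 2 vehicle libraries. Those of Mcl1 and Bax were also lost without Compound 10 replicate 1 or 2. The Mcl1 call was lost in length-scaled TPM sums and with the replicate number as a block, and that of Bax with upper-quartile scaling.

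Stress genes showed no single direction. Of 26 heat shock genes, 8 fell and 3 rose (3 and 3 without vehicle replicate 1, 3 and 3 without vehicle replicate 2). The mitochondrial chaperone genes Hspa9 and Hspd1 fell by 1.35 ± 0.14 and 0.87 ± 0.15. Dnajb1, a cytosolic cochaperone, stood at 613 and 771 CPM under vehicle and 2670.4, 2075 and 2836 CPM with Compound 10 and rose by 1.87 ± 0.31. Hspa1a and Hspa1b, which rose by 1.21 ± 0.22 and 1.801 ± 0.34, are near-identical copies, so the split of reads between them is uncertain. Of 27 NRF2 target genes, 5 fell and 2 rose (2 and 0 without vehicle replicate 1, 3 and 0 without vehicle replicate 2). Among them Hmox1, heme oxygenase, fell from 15.2 and 15.3 CPM under vehicle and 4.53, 4.46 and 2.48 CPM with Compound 10, a change of -1.999 ± 0.35. Of 27 p53 target genes, 7 rose and 3 fell (2 and 1 without vehicle replicate 1, 3 and 1 without vehicle replicate 2, 4 and 1 without Compound 10 replicate 1). Of 28 stress and unfolded protein genes, 6 rose and 6 fell (1 and 3 without vehicle replicate 1, 3 and 3 without vehicle replicate 2). Of 33 interferon response genes, 3 rose and 2 fell (2 and 2 without vehicle replicate 1, 2 and 1 without vehicle replicate 2). Of 30 sterol synthesis genes, 9 fell and 5 rose (5 and 1 without vehicle replicate 1, 6 and 0 without vehicle replicate 2), and Cyp51, lanosterol demethylase, fell by 1.56 ± 0.19. Of 32 actin regulators, 6 fell and 5 rose (4 and 1 without vehicle replicate 1, 3 and 2 without vehicle replicate 2). Of 19 nutrient transporters, 2 fell and 1 rose (1 and 0 without vehicle replicate 1, 2 and 1 without vehicle replicate 2, 4 and 2 without resting vehicle replicate 3, 5 and 1 without Compound 10 replicate 3). Of 27 mRNA decay regulators, 5 fell and 5 rose (2 and 2 without vehicle replicate 1, 2 and 5 without vehicle replicate 2, 3 and 3 without Compound 10 replicate 1).

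The largest falls and rises over all genes covered several functions. Nckap1, a subunit of the WAVE complex that nucleates branched actin and a member of the actin list, stood at 77. and 65.3 CPM under vehicle and 5.09, 9.17 and 4.07 CPM with Compound 10, a change of -3.53 ± 0.35 on the log2 scale (SE; edgeR, adjusted p = 5.96e-05). Kpna6, a nuclear import receptor, fell by 2.67 ± 0.26, Gtf3c4, a subunit of the polymerase III factor TFIIIC, by 2.46 ± 0.21, and Gpat3, an enzyme of triglyceride synthesis, by 2.45 ± 0.303. Tars, threonyl-tRNA synthetase, stood at 181 and 188 CPM under vehicle and 30.95, 35.6 and 39.4 CPM with Compound 10, a change of -2.38 ± 0.15, and Dnmt3a, the de novo DNA methyltransferase, at 264 and 231 CPM under vehicle and 62.2, 70.3 and 68.2 CPM with Compound 10, a change of -1.89 ± 0.14. The groups were separate in both, as the rule for naming the largest and surest changes required.

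Arl5c, an ARF-like GTPase gene, showed the largest rise among the genes that qualified for naming by size. It stood at 28.97 and 31.1 CPM under vehicle and 592, 552 and 669 CPM with Compound 10, with a resting vehicle mean of 23.4 ± 3.596 CPM (SD, n = 3) and a resting Compound 10 mean of 51.5 ± 0.369 CPM (SD, n = 2). The change in stimulated cells was 4.33 ± 0.19 on the log2 scale (SE; edgeR, adjusted p = 4.68e-07). Serpinb9, an inhibitor of granzyme B, rose from 2.96 and 1.99 CPM under vehicle and 12.4, 18.9 and 23. CPM with Compound 10, a change of 2.89 ± 0.34, and Zfat, a zinc finger gene of lymphocytes, by 2.695 ± 0.46.

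The compound effect in stimulated cells was compared with that in resting cells, which share no library with it. Time with the compound may also differ between the 2 states, and its part in any difference was not tested. In resting cells 1247 genes changed (8.65%), 696 higher (4.83%) and 551 lower (3.82%). The 336 genes that rose in both were 22.2% of those that rose in stimulated cells and 48.3% of those that rose at rest. The 248 that fell in both were 13.3% and 45.0% in the same order. Across all 14417 genes the 2 log2 fold changes correlated at a Pearson r of 0.27 and a Spearman rho of 0.33, a description over genes, which are not independent replicates. The difference between the 2 effects was called for 1003 genes (6.96%), 375 toward a higher (2.6%) and 628 toward a lower value in stimulated cells (4.36%), and these included 527 of the 1862 that fell and 281 of the 1513 that rose in stimulated cells. Without vehicle replicate 1 of the stimulated cells that count was 218 and without replicate 2 it was 323.

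Among genes that fell, the difference was called for Il2ra, Cd160, Vsir, Nfatc1, Nfkb1, Polr1b and Ccnd2, none of which was called at rest. Il2 was too low at rest to test the difference, with an adjusted p of 0.293 in edgeR. For Btla, Tnfrsf9 and Cd6 the compound effects were opposite, with rises at rest of 1.65, 0.87 and 1.33 on the log2 scale (edgeR, adjusted p = 0.00682, 0.0268 and 0.00028). Among genes that rose, the difference was called for Egr1, Btg2, Icam1 and Arl5c. For Il7r, Cd274, Cenpe, Tpx2, Incenp and Plk4 it was not called, and the rises at rest were 2.08, 1.19, 3.12, 3.496, 2.697 and 2.896.

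**Figure D5:**
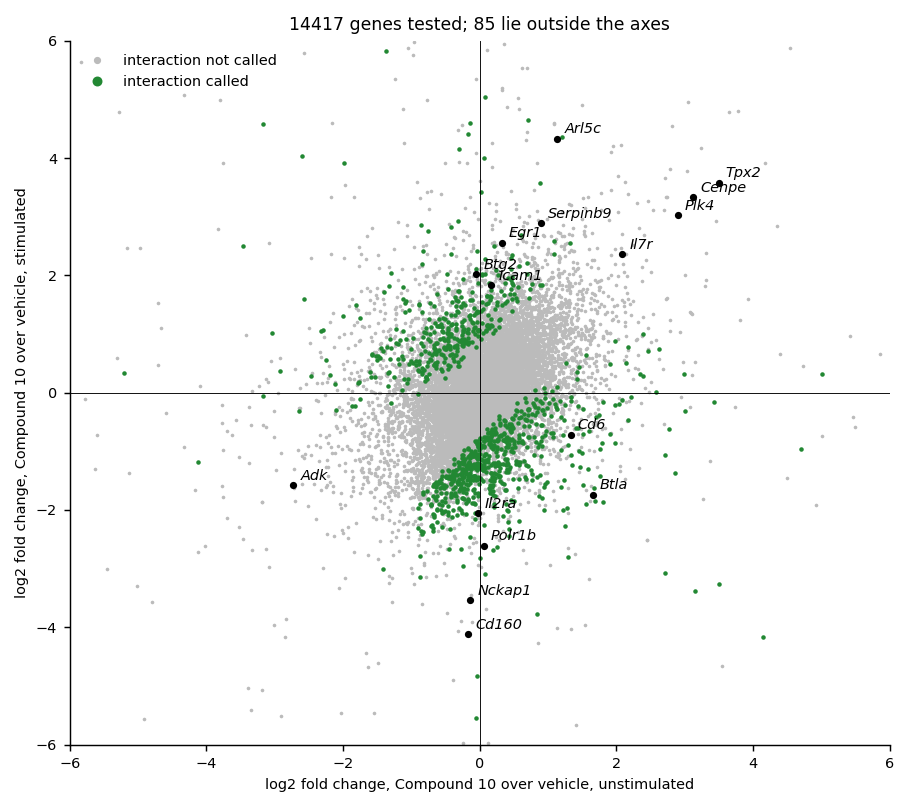
Log2 fold change of Compound 10 over vehicle in unstimulated cells (x axis) and in stimulated cells (y axis) for 14417 genes, with genes whose 2 effects differed in green and named genes in black; 85 genes lie outside the axes. Cenpe, Tpx2, Plk4 and Il7r lie high on both axes, whereas Egr1, Btg2 and Icam1 are high and Nckap1, Cd160 and Polr1b low on the y axis alone.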

How the data were processed

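RNA of 10 libraries was made with a SMART-seq kit, per the labels' protocols, which does not mark strand. Per the submitters' processing notes, the tools were cutadapt and kallisto and the build was mm10, with no version given in the sources used here. Estimated counts and TPM per transcript were made by the authors with kallisto and deposited as 1 table per library, per the file headers. Transcripts were matched to GENCODE M21 genes by identifier without version (108214 of 109617), and the counts of a gene's transcripts were added up and rounded. The 1403 unmatched transcripts held 0.507% to 0.671% of counts and were left out. Genes passing filterByExpr (14417 of 45321) were tested with edgeR 4.0.16 in R 4.3.3 (TMM, robust quasi-likelihood fit of all 10 libraries, 1 coefficient per group), with Benjamini-Hochberg adjustment over all of them. Risen, fallen and called mean an adjusted p under 0.05. Levels are CPM with TMM factors, marker sums are CPM on library totals, and ± is SE for log2 fold changes and SD for levels. The 95% intervals are per gene and not adjusted. DESeq2 1.42.0, other scalings and left-out libraries were alternatives.

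The members and gene lists were chosen with earlier results of these data known. Named genes came from a panel of 21 activation genes, up to 4 members of each list in each direction by adjusted p, and the largest and surest changes over all genes (adjusted p under 0.05, mean log2 CPM of at least 3, groups not overlapping). The last 2 sets left out genes without a name, pseudogenes, and genes of ribosomal proteins, mitochondria, antibodies and receptor segments. No repeated library was found (lowest chi-square per degree of freedom 14.8). On simulated counts of 14417 genes with 200 changed, the stimulated comparison recovered 23% of 2-fold and 70% of 4-fold changes. Of its 99 calls, 6 were false. The data gave 3375 calls, and the adjusted p depends on how many genes change. These shares therefore do not give the recovery in the data, and a gene that was not called may still have changed. Depth limits the precision of genes with few counts.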

Additional observations from a re-analysis of the deposited data

Results flagged for a closer look

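For 64 of the genes named in the report, the effect of Compound 10 in stimulated cells differed from that in resting cells by the test of the difference itself (edgeR's interaction term, adjusted p under 0.05). Over all genes tested the difference was called for 6.96%. The named genes, 137 called in stimulated cells and 12 not called, were mostly picked for their change in stimulated cells. That change is part of the difference tested, so a high count was built in. A negative difference on the log2 scale means a lower compound effect in stimulated cells. Among secreted products, their ligands and receptors of cytokines the difference was -6.78 for Xcl1, -5.78 for Tnfsf14, -1.11 for Fasl, -2.03 for Il2ra, -2.62 for Il15ra and -1.88 for Jak2. For surface receptors it was -3.95 for Cd160, -2.44 for Vsir, -3.39 for Btla, -2.64 for Tnfrsf9, -2.05 for Cd6, -1.66 for Cd2 and -1.32 for Icos. Signalling genes that were lower had differences of -2.75 for Ubash3b, -2.7 for Dusp14, -1.88 for Sla, -0.91 for Ptpn22 and -1.14 for Ndfip1. Transcription and mRNA regulators that were lower had differences of -1.33 for Nfatc1, -1.43 for Nfkb1, -1.35 for Rel, -1.05 for Nr4a3, -1.21 for Nab1, -0.997 for Mafk, -1.18 for Hif1a, -0.97 for Tle4, -1.27 for Zfp36l1 and -1.78 for Dnmt3a. Ribosome biogenesis and translation genes had differences of -2.67 for Polr1b, -2.395 for Dhx33, -1.73 for Noc4l, -1.54 for Nifk, -1.198 for Rrs1, -1.01 for Wdr3, -2.31 for Gtf3c4 and -1.55 for Tars. In metabolism, transport and chaperones the values were -2.88 for Gpat3, -2.402 for Hmox1, -2.05 for Slc7a1, -1.91 for Cyp51, -1.44 for Srm, -1.34 for Pgam1, -1.19 for Umps, -0.97 for Adsl, -1.09 for Hspa9 and -0.83 for Hspd1. In the cell cycle, cytoskeleton and nuclear import they were -3.399 for Nckap1, -2.89 for Kif15, -2.22 for Kpna6 and -1.88 for Ccnd2. The Xcl1 value rests on 4 counts over the 2 resting Compound 10 libraries and 0 under vehicle, and that of Tnfsf14 on 17 counts and 3, so neither is a size to rely on.

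Positive differences, with a higher compound effect in stimulated cells, were 3.19 for Arl5c, 2.24 for Egr1, 2.08 for Btg2, 2.001 for Serpinb9, 1.99 for Rbl2, 1.74 for Nfkbil1, 1.67 for Icam1, 1.53 for Bad and 1.503 for Grap2. Smaller positive differences were 1.24 for Il16, 1.22 for Ndc80, 1.15 for Adk and 1.12 for Tnip1. Egr2, not called in stimulated cells, fell at rest by 1.54, a difference of 1.81. The fitted changes had opposite signs in the 2 states in 29 of the 64 genes, mostly with a change at rest that was not called. The change at rest was called in 5 of them, as a rise in Tnfsf14, Btla, Tnfrsf9 and Cd6 and as a fall in Egr2. In Adk the fall at rest was the larger, at -2.73 against -1.58 in stimulated cells. The counts of genes with such a difference depend on single libraries, as given below, and no cause of any of these differences was tested.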

How the results depend on the processing

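Of 137 genes called in stimulated cells and named in the report, 102 kept their call in each of 19 alternative settings and 35 lost it in at least 1, of which 32 without stimulated vehicle replicate 1 and 25 without replicate 2. The direction of these 137 did not reverse. It reversed in 11 cases for 3 genes that were not called. Batf was -0.045 with the replicate block and -0.013 with the file index block, and -0.022 to 0.201 with a library left out. Fosl1 was 0.063 with upper-quartile factors and 0.031 with no scaling, and -0.153 to 0.022 with a library left out. Nfkbia was -0.047 with the replicate block and -0.043 with the file index block, and -0.072 to 0.129 with a library left out.

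The 3375 calls in stimulated cells ranged from 1644 to 3997 with 1 library left out, the rises from 554 to 1877 and the falls from 1051 to 2120. The 1247 calls at rest were 1887 in DESeq2 and 2543 with the file index block, and 380 to 1448 with a library left out, the lowest without resting Compound 10 replicate 2. The 1003 differences between the effects were 1621 in DESeq2, 652 from length-scaled TPM sums, 1627 with the replicate block and 2292 with the file index block, and 218 to 1421 with a library left out. The cause of these shifts was not tested, beyond the smaller number of samples where a library was left out. The share of rises among calls at rest was 55.8%, and 42.5% with no scaling. Among the differences between effects the share toward a higher value was 37.4%, 50.4% with upper-quartile factors and 62.4% with no scaling.

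Replicate numbers were not used as pairs, since the labels name no pairing. Over genes, the deviation of each library's log2 CPM from its group mean was compared between libraries. These deviations correlated at 0.09 and 0.037 between same-numbered stimulated libraries. In a group of 2 libraries the deviations mirror each other, so these values say little about pairing. File index groups were made here by binning the index numbers in the file names, and the labels name no such batch. The same deviations of libraries from different groups that share a file index group correlated at -0.052 to 0.464. The highest value was for resting vehicle replicate 3 and resting Compound 10 replicate 2. In stimulated cells the replicate block gave 4062 calls and the file index block 4666. The fit of the stimulated libraries alone gave 4463 calls among 12901 genes tested. In that fit 4 of the named genes that were not called in the main fit were called. Where a fit left 1 stimulated vehicle library, that library was assumed to vary like the other groups. Within each of the 2 file index groups that hold both stimulated treatments, 137 of 137 called genes kept their sign, which uses the same libraries and is no separate check. Beside the left-out libraries given in the report, the file index block moved the total called by over 1.5 times in the lists of cytokine receptors, AP-1 factors, stress genes, NRF2 targets, interferon response, actin regulators and nutrient transporters, upward in each. The fit of the stimulated libraries alone did so for AP-1 factors, interferon response and nutrient transporters. Upper-quartile scaling did so for the last 2 of these lists. DESeq2 and the replicate block did so for nutrient transporters, and leaving out the filter on low counts for AP-1 factors. All of these moves were upward. Genes with few counts, such as Zbtb32, are limited by depth.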
